A study of Mus musculus with 3 samples.

Results

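This section describes 9 genes that are known from cartilage and bone, across the cell types of the ascending aorta: the transcription factors *Sox9*, *Runx1* and *Runx2*, the secreted ligands *Bmp2* and *Bmp4*, and the mineral and matrix genes *Spp1*, *Mgp*, *Alpl* and *Ibsp*. They were chosen by symbol, with no threshold on any measured value, and each symbol had 1 row among the 32285 genes of every count matrix. Aortic cells of male C57BL/6J mice at P45 were captured in 3 droplet libraries. The WT library came from 3 pooled mice, the mgR library from 3 pooled Fbn1mgR/mgR mice, whose *Fbn1* allele is expressed at a reduced level in every cell, and the mgR-LOS library from 4 pooled Fbn1mgR/mgR mice that drank losartan, a blocker of the angiotensin II type 1 receptor, at 0.6 g/L from P16. The labels list losartan and vehicle arms and leave unstated which of these, if either, applies to the mgR library. With 1 pool per group, mouse-to-mouse spread could not be measured and no test between groups was possible. All intervals given are 95% intervals for counting error only. A difference outside them is a difference between 2 libraries, and the mgR library serves in both the comparison with WT and the comparison with losartan.

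SOX9 and the RUNX factors are the DNA-binding regulators that set the cartilage and bone programmes. BMP ligands signal through receptor kinases and SMAD proteins and can induce those regulators. Mineral deposition is then set by matrix proteins that bind calcium or hydroxyapatite, such as osteopontin (*Spp1*), bone sialoprotein (*Ibsp*) and matrix Gla protein (*Mgp*), and by tissue-nonspecific alkaline phosphatase (*Alpl*), which breaks down pyrophosphate, an inhibitor of mineral. In the artery wall matrix Gla protein is a product of healthy smooth muscle and is known to restrain both calcification and BMP signals.

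Kept barcodes had 600 to 5000 detected genes and a mitochondrial share of no more than 10% of UMIs (unique molecular identifiers, each 1 captured transcript), which left 5361 WT, 8076 mgR and 12721 mgR-LOS barcodes. The kept barcodes held 69976063, 99877993 and 111155672 UMIs. Cell types were gated with 8 marker genes each, none of them a member. Smooth muscle cells (SMC) numbered 3677, 3181 and 7994 in the order WT, mgR and mgR-LOS, fibroblasts 1282, 2316 and 2999, endothelial cells (EC) 110, 216 and 172, and macrophages 89, 984 and 556. Each gate detected all 8 of its own markers in every library. The SMC panel summed to 50811 to 54184 CPM (a gene's share of all UMIs of the gate in that library, scaled alike for every sum) in the SMC gate and to 886 to 1890.1 CPM in the other gates. *Fbn1* was at 361 CPM in WT, 150.1 in mgR and 117 in mgR-LOS over all kept barcodes, lower in both libraries of the mutant genotype. The mix of cell types in these sums differed between libraries. Barcodes shared by sequence between libraries numbered 22 for WT and mgR, 29 for WT and mgR-LOS and 46 for mgR and mgR-LOS. Median depth was lower in mgR-LOS, at 8530.5 UMIs per SMC against 14356 in WT and 15032 in mgR, so shares of barcodes with a UMI are given after thinning every barcode to 1000 UMIs.

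The genes lie on 8 chromosomes of GRCm38. *Ibsp* (ENSMUSG00000029306, chr5:104299171-104311469) and *Spp1* (ENSMUSG00000029304, chr5:104435118-104441050) lie on the plus strand of chromosome 5, within the same cluster of genes for acidic matrix proteins of bone and tooth. *Sox9* (ENSMUSG00000000567) is at chr11:112782224-112787760, *Runx1* (ENSMUSG00000022952) at chr16:92601466-92826149, *Runx2* (ENSMUSG00000039153) at chr17:44495987-44814797, *Bmp2* (ENSMUSG00000027358) at chr2:133552159-133562885 and *Bmp4* (ENSMUSG00000021835) at chr14:46383520-46390669. *Mgp* (ENSMUSG00000030218) is at chr6:136872435-136875823 and *Alpl* (ENSMUSG00000028766) at chr4:137741733-137796384. UMIs mark the 3′ end of transcripts, so the counts do not show which promoter of *Runx1* or *Runx2* was used.

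RefSeq promoter windows of the same build were at hand for 6 of the 9 genes, in 9 windows. The 250 bases before the RefSeq start are shown for *Spp1* and *Runx2*, the only genes here with a RUNX hexamer in that stretch. *Ibsp*, which lies in the same gene cluster as *Spp1* and has no such hexamer, is shown beside them. Capitals mark the hexamer TGTGGT or its reverse complement ACCACA, and each sequence is written 5′ to 3′ on the gene's own strand.
Spp1 (chr5:104434861-104435110, plus strand): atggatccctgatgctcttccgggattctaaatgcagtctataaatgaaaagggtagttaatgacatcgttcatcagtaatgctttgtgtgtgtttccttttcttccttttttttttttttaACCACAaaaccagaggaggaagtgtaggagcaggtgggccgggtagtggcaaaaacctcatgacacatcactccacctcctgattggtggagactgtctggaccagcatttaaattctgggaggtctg
Ibsp (chr5:104299037-104299286, plus strand): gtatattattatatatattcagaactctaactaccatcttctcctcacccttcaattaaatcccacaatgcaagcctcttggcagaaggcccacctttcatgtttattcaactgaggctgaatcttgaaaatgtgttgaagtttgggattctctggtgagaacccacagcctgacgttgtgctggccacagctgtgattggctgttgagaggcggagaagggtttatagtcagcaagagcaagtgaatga
Runx2 (chr17:44814628-44814877, minus strand): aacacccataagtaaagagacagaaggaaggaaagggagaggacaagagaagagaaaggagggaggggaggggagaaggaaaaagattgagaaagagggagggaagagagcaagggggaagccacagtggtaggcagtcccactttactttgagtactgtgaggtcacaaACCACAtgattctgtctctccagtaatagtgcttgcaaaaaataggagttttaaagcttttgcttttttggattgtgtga
The hexamer starts at -128 from the RefSeq start of *Spp1* and at -80 from that of *Runx2*. The gene positions given above come from another annotation, GENCODE. By those positions the stretches shown for *Runx2* and *Ibsp* reach into the genes, and the *Runx2* hexamer lies inside the gene. It was present on either strand in 14.0% of 32851 mouse promoter stretches of this length, so a match in 2 of 9 is a description of these letters and not of a bound site. The letters AACAAT, used for SOX factors and held by 9.42% of all stretches, and TGANTCA, used for AP-1 and held by 6.75%, were in none of the 9.

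Across the 12 sums of a cell type and a library, the genes took different patterns. *Mgp* was the only one whose levels all stood apart from their neighbours in rank, from 25767 CPM in mgR SMC to 199 CPM in WT macrophages. *Bmp4* had its highest sum in EC, *Runx1* and *Bmp2* in macrophages, and *Sox9*, *Runx2*, *Alpl*, *Spp1* and *Ibsp* in fibroblasts. For *Spp1* and *Ibsp* this did not hold in every library. In mgR-LOS *Spp1* was at 104 CPM in macrophages and 33.5 in fibroblasts, and all 11 *Ibsp* UMIs of WT lay in SMC. For *Alpl* and *Runx2*, 8 and 9 of the 11 neighbouring pairs in rank had ratios whose intervals included 1. *Ibsp* had 0 UMIs in 6 of the 12 sums, so most of its neighbours had no ratio.

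**Figure D1:**
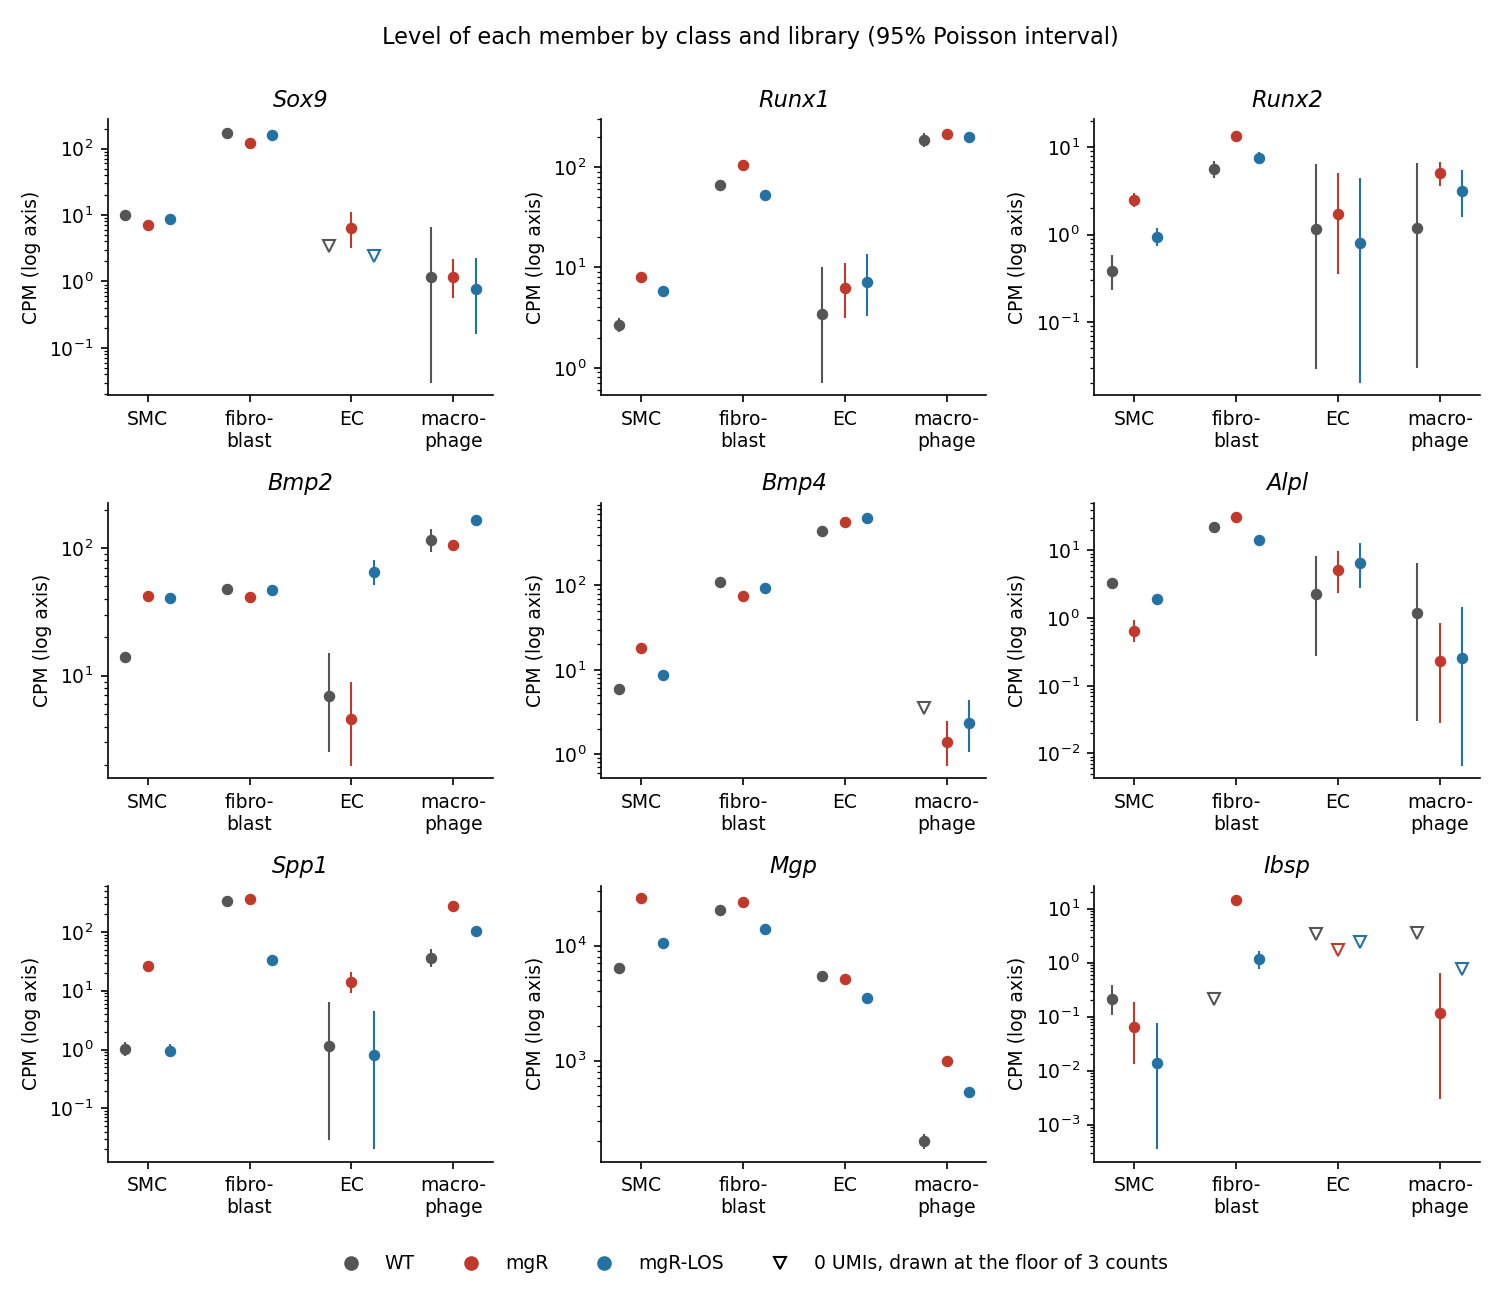
Level of each of the 9 genes in CPM (log axis) in SMC, fibroblasts, EC and macrophages of the WT, mgR and mgR-LOS libraries, with bars for the 95% Poisson interval and open triangles for sums with 0 UMIs drawn at the floor of 3 counts. *Spp1*, *Runx2* and *Mgp* of SMC were highest in mgR, *Sox9* and *Alpl* of SMC were lowest there, and *Sox9* and *Alpl* had their highest levels in the fibroblast gate.

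In SMC, the cartilage regulator *Sox9* was lower in mgR and the bone regulators were higher. *Sox9* stood at 10.0 CPM in WT, 7.13 in mgR and 8.65 in mgR-LOS, a ratio of mgR over WT of 0.713 (0.620 to 0.819). *Runx1*, a RUNX factor known mainly from blood cell formation, was at 2.67, 7.98 and 5.84 CPM, 2.99 times higher in mgR than in WT (2.45 to 3.65). *Runx2*, the regulator without which bone is not formed, was at 0.384 CPM in WT, 2.48 in mgR and 0.948 in mgR-LOS. The *Runx2* ratio of mgR over WT was 6.46 (4.0 to 11.0), but it rests on 20 UMIs in WT and 118 in mgR, or 1 UMI in a small share of barcodes. Under losartan *Runx2* was at 0.382 of the mgR level (0.279 to 0.519) and *Runx1* at 0.732 (0.636 to 0.844), and both were above WT, by 2.47 times (1.48 to 4.29) and 2.19 times (1.80 to 2.67). Against WT, *Runx2* in mgR-LOS was only 1.2 times as high with a mitochondrial limit of 5%, and *Runx1* was 1.87 times as high. *Sox9* was 1.21 times higher in mgR-LOS than in mgR (1.06 to 1.39). After thinning, a *Runx1* UMI was found in 0.463% of WT, 0.850% of mgR and 0.488% of mgR-LOS SMC, and a *Sox9* UMI in 1.06%, 0.850% and 0.713%. The thinned *Runx1* shares of WT and mgR-LOS were nearly equal although their CPM were not. For *Sox9* the thinned share of mgR-LOS was below that of mgR although its CPM was above, so no order between those 2 libraries is read from it. Lymphocyte-like barcodes, 28, 291 and 76 with T or B cell markers and no gate met, a cell type that expresses *Runx1*, carried it at 60.3, 67.6 and 123 CPM, above every SMC level. They had *Runx2* at 9.96 CPM (6.00 to 15.6) in mgR and 19.4 (7.11 to 42.1) in mgR-LOS, above the SMC levels, and only 1 *Runx2* UMI in WT.

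Fibroblasts held most of the *Sox9* UMIs, 78.9% in WT, 81.3% in mgR and 75.2% in mgR-LOS. There *Sox9* was at 172, 120.4 and 162 CPM, a ratio of 0.70 (0.664 to 0.737) for mgR over WT and of 1.34 (1.28 to 1.40) for mgR-LOS over mgR. *Sox9* was therefore lower in mgR by nearly the same factor in both cell types, at a level more than 10 times higher in fibroblasts. Lymphocyte-like barcodes had *Sox9* at 3.15 CPM (1.15 to 6.85) in mgR and 0 UMIs in WT and mgR-LOS. The part of such background in the *Sox9* values of SMC was not tested. *Runx1* moved the other way, at 66.8 CPM in WT, 106 in mgR and 52.7 in mgR-LOS, with ratios of 1.59 (1.48 to 1.71) and 0.496 (0.465 to 0.529). *Runx2* in fibroblasts was at 5.62, 13.6 and 7.60 CPM, 2.41 times higher in mgR than in WT (1.90 to 3.10) and at 0.560 of the mgR level under losartan (0.469 to 0.668). In thinned fibroblasts *Runx1* was detected in 5.38%, 9.54% and 3.70% and *Sox9* in 13.8%, 9.02% and 12%, the same orders as the CPM.

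In macrophages *Runx1*, which takes part in myeloid development, was at 187, 215 and 199.9 CPM, and neither the ratio of mgR over WT, 1.15 (0.974 to 1.36), nor that of mgR-LOS over mgR, 0.932 (0.856 to 1.01), excluded 1. Over all kept barcodes *Runx1* was 3.34 times higher in mgR than in WT, more than in any single gate, and the macrophage gate held 11.5% of its UMIs in WT and 27.9% in mgR. In EC the regulators were near the limit of counting: *Runx1* at 3.45, 6.28 and 7.23 CPM, *Runx2* with 1, 3 and 1 UMIs, and *Sox9* with 11 UMIs in mgR, 10 of them in 1 barcode, and none in WT or mgR-LOS.

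The ligands differed between SMC and fibroblasts in the direction of the mgR difference. In SMC *Bmp2*, which can drive bone formation on its own in muscle, was at 14.0 CPM in WT, 42.2 in mgR and 40.8 in mgR-LOS. It was 3.01 times higher in mgR than in WT (2.76 to 3.28) and the losartan library showed no lower level, with a ratio of 0.968 (0.914 to 1.02) over mgR. *Bmp4*, its close relative, was at 5.92, 18.3 and 8.65 CPM, 3.10 times higher in mgR (2.72 to 3.54), but under losartan it was at 0.472 of the mgR level (0.425 to 0.523). *Bmp2* and *Bmp4* thus shared the mgR difference in SMC and parted in mgR-LOS. The thinned shares followed the CPM, at 1.28%, 3.84% and 3.76% of SMC with a *Bmp2* UMI and 0.545%, 1.51% and 0.914% with a *Bmp4* UMI.

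In fibroblasts both ligands were lower in mgR than in WT. *Bmp4* was at 110.1, 75.6 and 92.2 CPM, with ratios of 0.687 (0.644 to 0.733) for mgR over WT and 1.22 (1.15 to 1.29) for mgR-LOS over mgR. *Bmp2* was at 47.9, 41.2 and 46.9 CPM, with ratios of 0.859 (0.782 to 0.945) and 1.14 (1.05 to 1.24).

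EC carried the highest *Bmp4* levels, 437 CPM in WT, 570.5 in mgR and 638 in mgR-LOS, and after thinning 20.9%, 28.5% and 30.2% of EC had a *Bmp4* UMI. The mgR level was 1.31 times that of WT (1.16 to 1.47), and the mgR-LOS level 1.12 times that of mgR (1.02 to 1.23). Macrophages had 0, 12 and 9 *Bmp4* UMIs, which puts the gene at the level of stray counts there. *Bmp2* in EC rested on 6, 8 and 81 UMIs, of which 70 in mgR-LOS came from 1 barcode. Its EC level of 65.1 CPM in mgR-LOS was 0.876 CPM without the 10 highest barcodes, so the ratio of 14.2 over mgR is a property of few barcodes. Macrophages had *Bmp2* at 115, 106 and 167 CPM, 1.58 times higher in mgR-LOS than in mgR (1.43 to 1.75), whereas the ratio of mgR over WT was 0.921, with an interval that included 1 (0.746 to 1.15).

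*Mgp*, the inhibitor of mineral, was by far the most counted of the 9 genes and the one whose SMC ratios had the narrowest intervals. It stood at 6343 CPM in WT, 25767 in mgR and 10517 in mgR-LOS. The mgR level was 4.06 times that of WT (4.05 to 4.08), and losartan was at 0.408 of the mgR level (0.407 to 0.409) and 1.66 times the WT level (1.65 to 1.66). Nearly every SMC carried the transcript, 93.2%, 98.2% and 96.4% after thinning, so the difference was one of amount per barcode. The median SMC had 41.5 *Mgp* UMIs per 10000 in WT, 121 in mgR and 63.4 in mgR-LOS, and the highest had 1164, 3065 and 2011. The value below which 95% of WT SMC lay, 193 per 10000, was exceeded by 5.0% of WT, 36.7% of mgR (35.0% to 38.4%) and 13.0% of mgR-LOS SMC (12.2% to 13.7%).

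**Figure D2:**
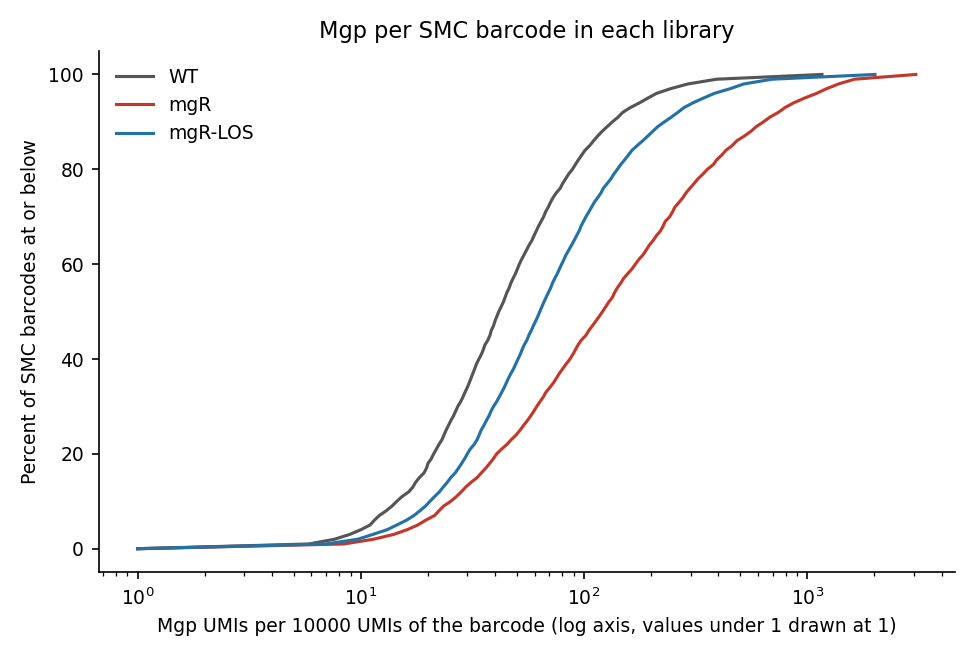
Percent of SMC barcodes at or below each *Mgp* level, in UMIs per 10000 UMIs of the barcode (log axis, values under 1 drawn at 1), with 1 line per library. The mgR line lies to the right of the others, with a median of 121 against 41.5 in WT and 63.4 in mgR-LOS, and no separate step divides high from low barcodes.

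In fibroblasts, whose *Mgp* level is high in all libraries, the values were 20398, 23792 and 13991 CPM, with ratios of 1.17 for mgR over WT and 0.588 for mgR-LOS over mgR. In WT the SMC level was far below that of fibroblasts, and in mgR it was above it. EC had 5418, 5109 and 3482 CPM, with ratios of 0.943 and 0.682. Macrophages had 199, 988 and 531 CPM, but lymphocyte-like barcodes, which should lack the gene, had 452, 1153 and 584 CPM and carried an *Mgp* UMI in 35.7%, 70.4% and 54.7% after thinning. The macrophage values were at or below these, so no expression by macrophages is read from them. Depth differed, with a median of 9057, 8251 and 6316 UMIs per macrophage and 4159.5, 4875 and 3269.5 per lymphocyte-like barcode. The part of background in the macrophage values was not tested. The values in EC, SMC and fibroblasts were above the lymphocyte-like values in every library.

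*Spp1*, which encodes a phosphoprotein that binds hydroxyapatite and integrins, had the largest SMC ratio of the 9 genes. It was at 1.02 CPM in WT, 25.9 in mgR and 0.962 in mgR-LOS, from 53, 1232 and 69 UMIs. The mgR level was 25.5 times that of WT (19.3 to 34.2), the losartan level was 27.0-fold lower than that of mgR, and mgR-LOS over WT was 0.944 (0.651 to 1.38). The share of SMC with an *Spp1* UMI after thinning was 0.0545%, 1.60% and 0.0626%, and in the lymphocyte-like barcodes of mgR it was 0.344% (0.00870% to 1.90%, 1 of 291), an interval that covers the mgR SMC share. The lymphocyte-like level in mgR was 9.96 CPM (6.00 to 15.6), below the SMC level of 25.9. Without the 10 highest SMC barcodes the SMC level was 9.03, within that interval, but the lymphocyte-like level was not trimmed in the same way. The part of background in the remaining SMC counts was not tested. *Spp1* was a gene of few SMC: 202 of 3181 mgR SMC had any UMI of it, 10 barcodes held 65.3% of the UMIs, and 1 held 194. Without the 10 highest barcodes of each library the levels were 0.289, 9.03 and 0.391 CPM, with mgR again the highest and WT now below mgR-LOS.

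The SMC with *Spp1* in mgR also carried more *Mgp*, a median of 245 per 10000 against 115 in SMC without it. Their SMC panel was lower, at 379 against 513 per 10000, and their fibroblast panel was 45.8 against 36.6. The 10 highest had a median of 942 *Mgp* UMIs per 10000 and an SMC panel of 204, and none of them was called a doublet. Barcodes that met both the SMC and the fibroblast gate were kept out of either, and their *Spp1* was at 8.94, 90.8 and 47.4 CPM. The part of mixed droplets or cells between the gates in the SMC values was not tested beyond the values given.

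**Figure D3:**
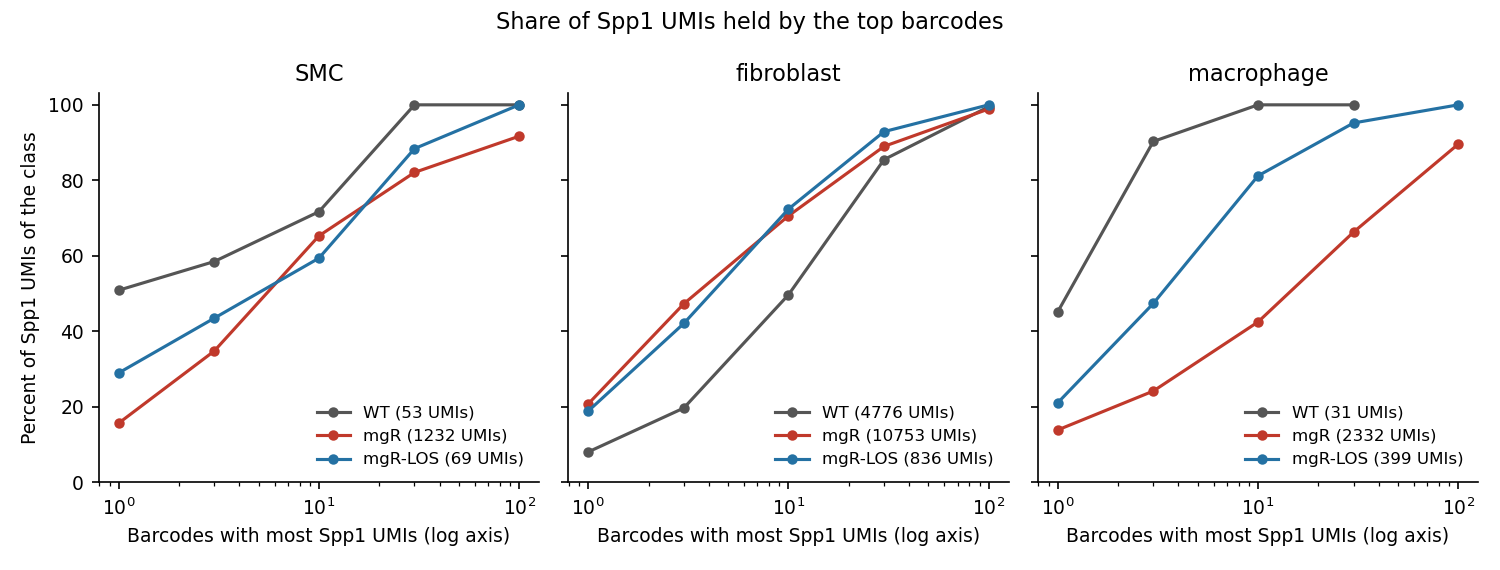
Percent of the *Spp1* UMIs of SMC, fibroblasts and macrophages (3 panels) held by the barcodes with most of them, against the number of barcodes (log axis), with 1 line per library. In mgR the top 10 barcodes held 65.3% in SMC, 70.6% in fibroblasts and 42.5% in macrophages.

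Fibroblasts held 96.7% of all *Spp1* UMIs in WT, 59.1% in mgR and 45.9% in mgR-LOS. Their level was 332, 367 and 33.5 CPM, so mgR was only 1.11 times WT (1.07 to 1.14), while mgR-LOS was 11.0-fold lower than mgR and 9.91-fold lower than WT. In 10 barcodes lay 49.7%, 70.6% and 72.4% of the UMIs, and without them the levels were 169, 108 and 9.30 CPM, which turns the order of WT and mgR. Thinned shares were 3.82%, 3.41% and 0.967%. The WT fibroblasts with *Spp1* had a median chondrocyte panel of 42.6 per 10000 against 0 in those without. In mgR this panel was 0.834 and in mgR-LOS 24.4, and in all 3 libraries the *Spp1* fibroblasts had more *Mgp*, 276, 298 and 172 against 94.0, 111 and 71.7 per 10000. Over the whole gate that panel was mostly *Comp*, 891 of 982 CPM in WT, with *Col2a1* at 10.1 and *Matn1* at 0, so no cell type is named from it. Before thinning, *Spp1* was found in 125 of 1282 WT, 203 of 2316 mgR and 72 of 2999 mgR-LOS fibroblasts. These barcodes held 4776, 10753 and 836 UMIs, at a lower depth in mgR-LOS. The number of such cells in a piece of tissue was not measured.

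In macrophages, where osteopontin acts as an attractant, *Spp1* was at 36.7, 273 and 104 CPM, from 31, 2332 and 399 UMIs. The mgR level was 7.44 times that of WT (5.23 to 11.0), and mgR-LOS was at 0.379 of mgR (0.340 to 0.422), still 2.82 times the WT level (1.96 to 4.21). The thinned shares were 1.12%, 9.77% and 3.96%. Before thinning, 6 of 89 WT, 246 of 984 mgR and 49 of 556 mgR-LOS macrophages carried the gene. The 10 highest barcodes held 42.5% of the UMIs in mgR and 81.2% in mgR-LOS. The macrophages with *Spp1* in mgR had no more *Mgp* than those without, 8.17 against 8.98 per 10000. In EC *Spp1* had 1, 25 and 1 UMIs, with 23 of the 25 in 1 barcode. A further 19.0% of the mgR *Spp1* UMIs lay in barcodes that met no gate, at 441 CPM against 71.4 in WT and 86.3 in mgR-LOS.

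*Alpl* was lower in mgR SMC than in WT SMC. Its SMC levels of 3.34, 0.652 and 1.95 CPM came from 174, 31 and 140 UMIs, 5.13-fold lower in mgR than in WT and 2.99 times higher in mgR-LOS than in mgR (2.02 to 4.57). The latter ratio was 1.79 when barcodes were given to their highest panel. After thinning 0.30%, 0.0315% and 0.25% of SMC had an *Alpl* UMI, in the same order, but the mgR share is close to that of 1 barcode. In fibroblasts the pattern was the reverse, with 22.6, 31.3 and 14.4 CPM and ratios of 1.39 (1.22 to 1.58) and 0.458 (0.405 to 0.519). Of all *Alpl* UMIs, SMC held 33.0% in WT, 2.74% in mgR and 24.8% in mgR-LOS. EC had 2, 9 and 8 *Alpl* UMIs and macrophages 1, 2 and 1.

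*Ibsp*, which nucleates hydroxyapatite in bone, was a gene of single barcodes. Fibroblasts had 0 UMIs in WT, 416 in mgR in 7 barcodes and 29 in mgR-LOS in 1 barcode, so mgR was at least 68.1-fold higher than the WT floor of 3 counts. The highest mgR barcode had 331 *Ibsp* UMIs, together with 339 of *Col2a1*, 235 of *Col10a1*, 119 of *Spp1*, 30 of *Alpl* and 12 of *Sox9*, which as a set are genes of cartilage and its hypertrophic cells. Another 2 had 46 and 28 *Ibsp* UMIs with 157 and 1789 UMIs of *Bglap* and 78 and 681 of *Bglap2*, the osteocalcin genes of osteoblasts. A further 1 had 8 *Ibsp*, 229 *Col2a1* and 2297 *Mgp* UMIs, and the other 3 had 1 *Ibsp* UMI each. None was called a doublet. These 7 barcodes were 0.302% of the fibroblast gate and held 99.4% of its *Bglap*, 97.9% of its *Bglap2*, 34.5% of its *Col2a1*, 7.07% of its *Alpl* and 2.68% of its *Spp1* UMIs. Without them *Alpl* in mgR fibroblasts was at 29.2 CPM and *Spp1* at 358. SMC had 11, 3 and 1 *Ibsp* UMIs, at most 2 per WT barcode, with a ratio of mgR over WT of 0.299 (0.0535 to 1.13), and EC had none. Cells of adjoining tissue in the pools and cells of the aortic wall that carry these genes cannot be told apart in these libraries.

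**Figure D4:**
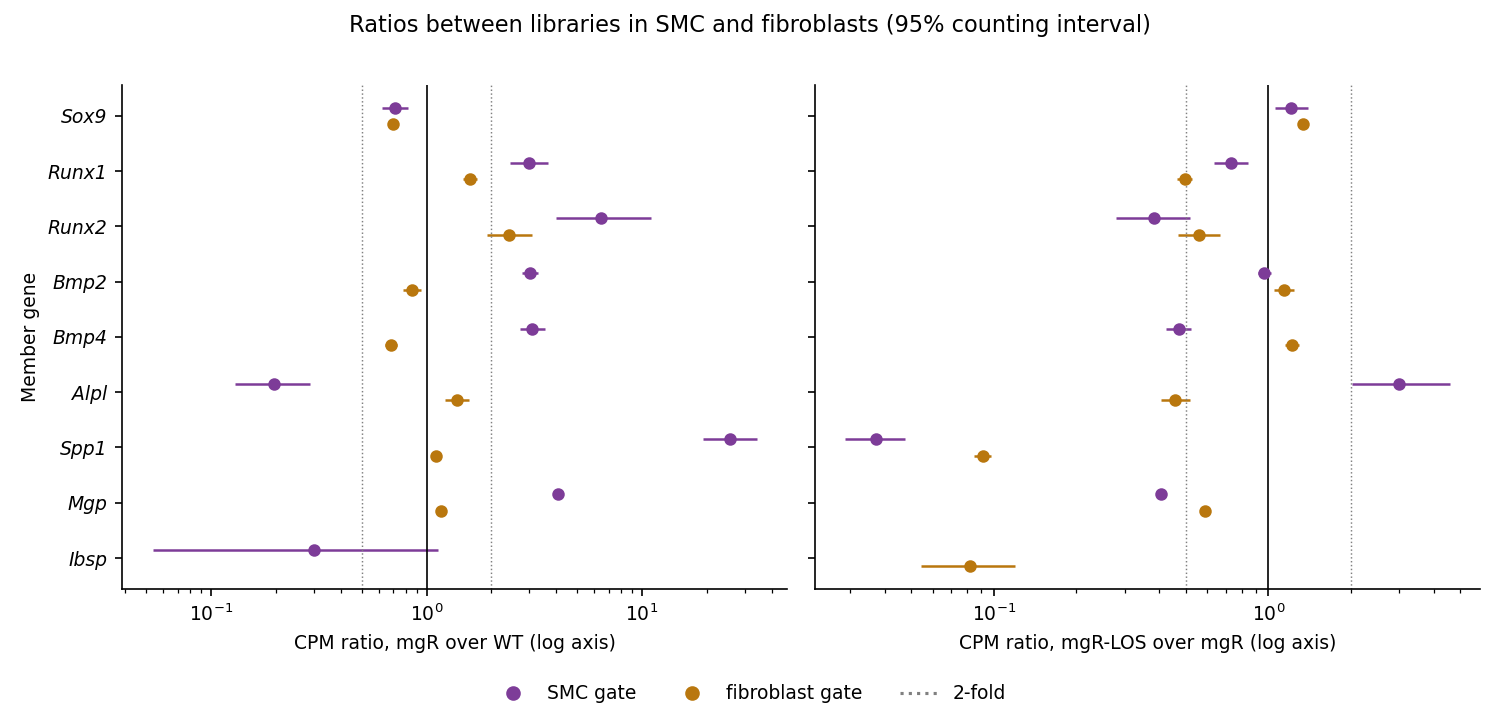
Ratio of CPM (log axis) of mgR over WT (left) and mgR-LOS over mgR (right) for each gene with a ratio, in SMC and in fibroblasts, with 95% counting intervals and dotted lines at 2-fold. In SMC 6 genes lie right of 2 on the left panel, from *Runx1* at 2.99 to *Spp1* at 25.5. In fibroblasts only *Runx2* does, at 2.41. Of all genes with a mean of at least 10 CPM, 1.91% in SMC and 2.57% in fibroblasts were at least 2-fold higher in mgR. *Spp1*, *Runx1* and *Runx2* of SMC and *Runx2* of fibroblasts were below that mean.

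For scale, genes with a mean of at least 10 CPM over the 3 libraries were counted as past 2-fold. In SMC 3.13% of 7401 such genes were past 2-fold between mgR and WT, 1.91% higher and 1.23% lower. Among the 9 genes 3 reached that mean, *Bmp2*, *Bmp4* and *Mgp*, and all were higher. *Bmp4* reached it only through mgR, at 18.3 CPM against 5.92 in WT and 8.65 in mgR-LOS. Its direction in the 2 comparisons with mgR is therefore not independent of the limit, and its count beside the share of all genes is no support. *Spp1*, *Runx1*, *Runx2* and *Alpl* had ratios past 2-fold at levels below or near the limit. Between mgR-LOS and mgR 1.41% of genes were past 2-fold in SMC, 0.703% higher and 0.703% lower, the lower ones with *Bmp4* and *Mgp*. Between mgR-LOS and WT it was 2.36%, 1.62% higher and 0.743% lower, and *Bmp2*, which was higher, was the only one of the 9.

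In fibroblasts 7 of the 9 genes reached the mean. Of all genes 4.02% were past 2-fold between mgR and WT, 2.57% higher and 1.45% lower, and 0 of the 7 were. Between mgR-LOS and mgR it was 1.46%, 0.589% higher and 0.871% lower, the lower ones with *Spp1*, *Runx1* and *Alpl*. Between mgR-LOS and WT it was 3.05%, 1.90% higher and 1.15% lower, the lower ones with *Spp1*. In EC 3 of the 9 genes reached the mean. There 6.28% of all genes were past 2-fold between mgR and WT, 3.82% higher and 2.45% lower, and 0 of the 3. Between mgR-LOS and mgR it was 4.45%, 2.17% higher and 2.28% lower, and between mgR-LOS and WT 6.96%, 4.27% higher and 2.69% lower, each time with *Bmp2* among the higher ones. *Bmp2* of EC reached the mean only through mgR-LOS, at 65.1 CPM against 6.90 in WT and 4.57 in mgR, mostly from 1 barcode. Its place among the higher genes was therefore set by the limit. With a mitochondrial limit of 5% its ratios were 1.56 over mgR and 0.707 over WT. In macrophages 5.52% were past 2-fold between mgR and WT (4.27% higher, 1.24% lower), 1.64% between mgR-LOS and mgR (0.730% higher, 0.906% lower) and 6.31% between mgR-LOS and WT (4.97% higher, 1.34% lower). Of the 4 genes with that mean, *Spp1* and *Mgp* were higher in mgR than in WT and in mgR-LOS than in WT, and *Spp1* was lower in mgR-LOS than in mgR. The *Mgp* levels there were at or below those of lymphocyte-like barcodes, and the ratio of mgR-LOS over WT was 1.86 with stricter gates and 1.91 without called doublets.

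SMC of each library were then ordered by their own *Mgp* share and divided into 4 bins of equal number, a view chosen after the data had been seen, with CPM computed without *Mgp* UMIs. In mgR, and as given below in WT and mgR-LOS, the bone and ligand genes were highest in the bin with most *Mgp*. *Spp1* was at 2.08, 9.83, 10.3 and 85.5 CPM from the lowest to the highest bin, *Runx2* at 0.582, 1.29, 2.93 and 5.51 and *Bmp4* at 12, 11.1, 15.5 and 37.2. *Bmp2* went from 34.1 to 52.9 CPM, *Sox9* from 5.24 to 12.3 and *Runx1* from 5.82 to 13.6. *Alpl* did not share this, at 1.25, 0.431, 0.622 and 0.350 CPM. The SMC panel was 636, 553, 484 and 379 per 10000 along the same bins and the fibroblast panel 32.2, 35.9, 39.4 and 46.6. The part of a fibroblast admixture in the members' values was not tested.

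The highest *Mgp* bin also had the highest *Spp1* in WT, at 3.03 CPM against 0.310 to 0.591 in the others. In mgR-LOS *Spp1* was at 3.04 CPM against 0.22 to 0.459. *Sox9*, *Runx1*, *Runx2*, *Bmp2* and *Bmp4* were also highest in that bin in both libraries, some with intervals that overlapped those of other bins. From the lowest to the highest bin *Bmp2* went from 10.8 to 20.4 CPM in WT and from 33.6 to 56.1 in mgR-LOS. *Runx2* went from 0.0738 to 0.673 CPM in WT, on few UMIs, and from 0.384 to 2.10 in mgR-LOS. The lowest mgR bin, with a median *Mgp* of 28.9 per 10000, had *Bmp2* at 34.1 CPM and *Bmp4* at 12, above the WT bin with most *Mgp*, at 20.4 and 8.07. The mgR difference of *Bmp2* and *Bmp4* was therefore present in SMC with little *Mgp*. For *Spp1* this was not so clear, with 2.08 CPM in the lowest mgR bin against 3.03 in the highest WT bin.

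**Figure D5:**
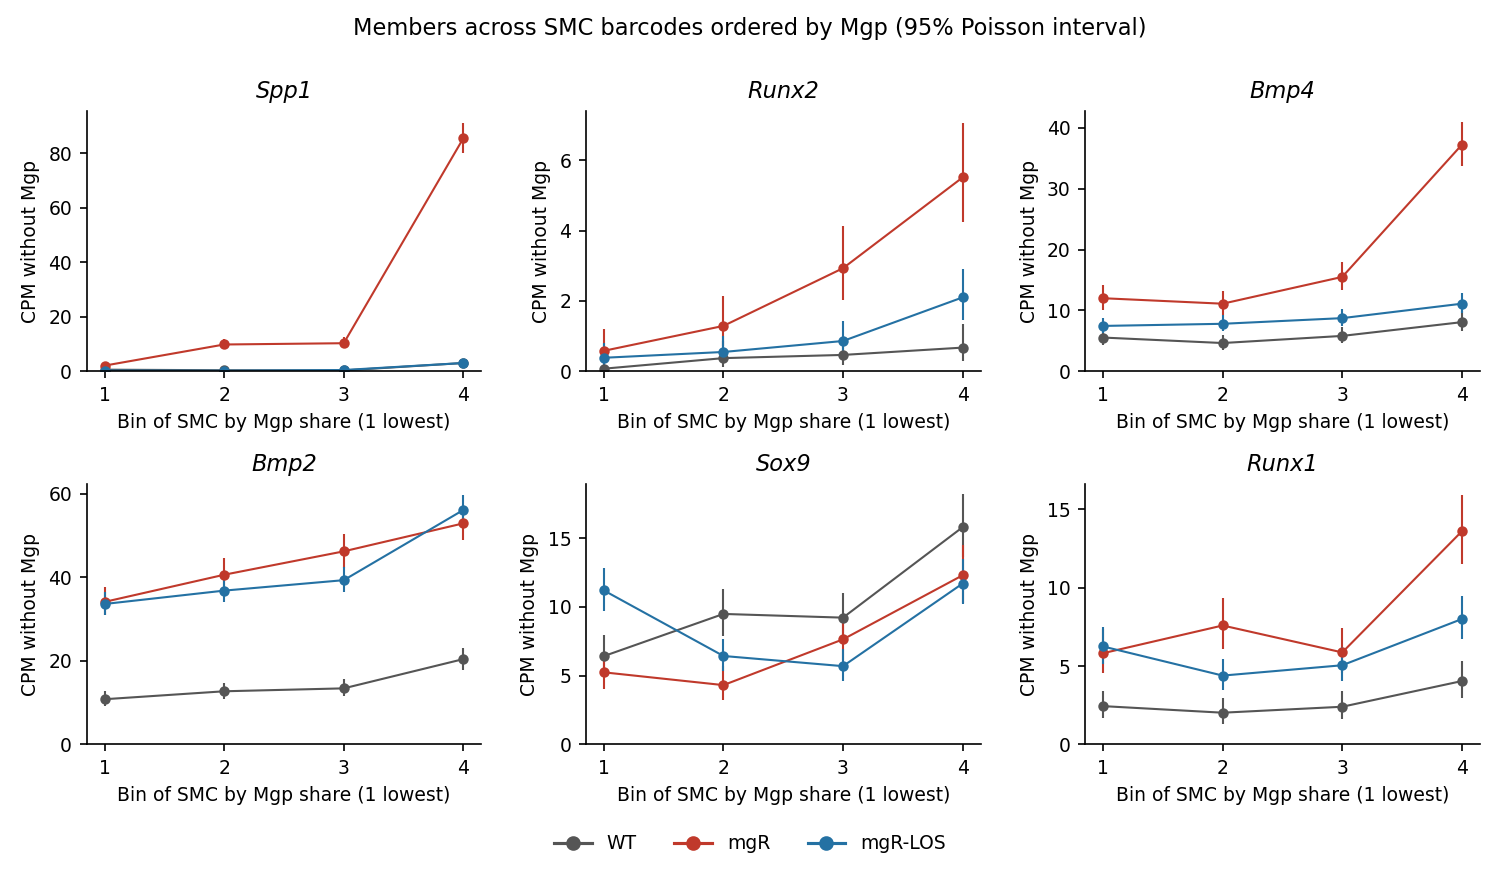
Level in CPM without *Mgp* UMIs (linear axis from 0) of 6 genes in SMC barcodes ordered by *Mgp* share and divided into 4 equal bins, 1 the lowest and 4 the highest, with 95% Poisson intervals and 1 line per library. In mgR *Spp1* reaches 85.5 CPM and *Bmp4* 37.2 in bin 4, and *Bmp2* lies above WT in every bin.

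In single SMC the genes seldom met. Of 51 mgR SMC with an *Spp1* UMI after thinning, 3 had a *Bmp4* UMI (5.88%, 1.23% to 16.2%) against 45 of 3127 without (1.44%, 1.05% to 1.92%), with overlapping intervals. None of the 51 had a *Runx1* or a *Runx2* UMI, which at 1000 UMIs per barcode is a limit of detection and not a sign of absence.

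Other genes of the same pathways, taken from 11 lists, were described in SMC and fibroblasts by the same limit of 2-fold. Between mgR and WT 3.13% of all SMC and 4.02% of all fibroblast genes tested were past it. Of the RUNX partners and relatives, 4 measured in SMC and 6 in fibroblasts, only *Cbfa2t3* was, lower in mgR in both. In SMC it was at 16.6, 5.22 and 10.2 CPM and reached the mean of 10 CPM only through WT. Its direction there is therefore not independent of that limit. Of 3 SOX partners measured in each, none was past 2-fold in SMC and *Sox6* was lower in fibroblasts. Their median log2 ratio in SMC was 0.37. Not every list is given for fibroblasts. In SMC, of 15 cartilage matrix genes only *Acan*, the large proteoglycan of cartilage, reached the mean of 10 CPM. It was at 34.1, 163 and 74.3 CPM, 4.79 times higher in mgR than in WT (4.55 to 5.05) and at 0.455 of mgR in mgR-LOS (0.439 to 0.471). Of 14 bone transcription factor and matrix genes 5 were measured and none was past 2-fold in any of the 3 SMC comparisons. Of 10 BMP SMADs and targets *Id1*, a direct target of BMP signals, was past 2-fold, at 142, 333 and 368 CPM, and like *Bmp2* it was not lower in mgR-LOS. The list's median log2 ratio of mgR over WT was -0.08. *Id3*, another such target, was at 838, 806 and 1035 CPM, *Id2* at 303, 275 and 261, and *Smad6*, an inhibitor that BMP signals induce, at 58.3, 41.3 and 34.2, a ratio of 0.709 (0.670 to 0.751) for mgR over WT. Of 7 measured BMP receptors *Bmpr1b* was lower, at 52.6, 14.5 and 11.2 CPM.

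Among secreted antagonists in SMC *Fst*, which binds activins and some BMPs, was at 8.19, 32.5 and 20.5 CPM, 3.97 times higher in mgR than in WT (3.56 to 4.43). From the list of other BMP ligands 3 genes were measured there, among them *Bmp1*, which encodes a protease and not a ligand. Of these *Gdf10* was higher in mgR, at 5.19, 34.6 and 18.7 CPM, and *Bmp3*, an inhibitory member of the family, was lower, at 47.0, 8.46 and 14.2. *Tnfrsf11b*, the decoy receptor osteoprotegerin, was at 10.7, 49.4 and 26.6 CPM and the only one of 5 measured mineral inhibitors and osteoclast regulators past 2-fold. None of 9 osteopontin receptor genes and none of 5 phosphate and pyrophosphate genes was past 2-fold. Of all SMC genes tested 3.13% were past it between mgR and WT, so lists this short would mostly hold none. These counts and that of the bone list are therefore not read as results about the lists. The receptor *Cd44* was at 34.1, 63.0 and 47.1 CPM and *Enpp1*, which makes the pyrophosphate that alkaline phosphatase breaks down, at 21.1, 36.5 and 22.1. The median log2 ratio of mgR over WT was 0.16 for the osteopontin receptors and 0.23 for the phosphate genes.

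In fibroblasts the cartilage matrix list was lower on balance in mgR, with 1 of 9 measured genes higher, 4 lower and a median log2 ratio of -0.76, against 2.57% higher and 1.45% lower of all fibroblast genes tested. *Chad* was at 487, 65.5 and 68.2 CPM and *Comp* at 891, 298 and 269. *Col2a1* was higher in mgR, at 10.1, 56.2 and 1.12 CPM, or 36.9 without the 7 *Ibsp* barcodes. It reached the mean of 10 CPM only through mgR, so its place as the 1 higher gene is not independent of that limit. All 9 were past 2-fold lower in mgR-LOS than in WT, with a median of -1.73, against 1.15% lower of all fibroblast genes tested. *Acan*, at 23.8, 14.0 and 4.96 CPM, reached the mean of 10 CPM only through WT. Its direction is therefore not independent of that limit. Like this list, *Spp1* of fibroblasts was lowest in mgR-LOS. Between mgR and WT the list was lower, whereas the summed *Spp1* level was slightly higher in mgR. That order of *Spp1* turned, as given above, without the 10 highest barcodes, which held 70.6% of its UMIs in mgR and 49.7% in WT. The part of this list in the fibroblast values of *Spp1* was not tested. From the list of other BMP ligands 5 genes were measured, among them *Bmp1*, which encodes a protease and not a ligand. Of the 5, 3 were higher in mgR (2.57% of all genes). *Gdf6* was at 7.64, 27.1 and 3.20 CPM, *Gdf10* at 191, 574 and 373 and *Bmp3* at 13.5, 40.1 and 25.5, the last one opposite in direction to SMC. *Gdf6* reached the mean of 10 CPM only through mgR, so its direction is not independent of that limit.

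The genes with the most similar pattern over the 12 sums were found by the correlation of log2(CPM + 1) among 8770 genes, as a description with no test. The sums share libraries and cell types, so few of the 12 points are independent. For *Mgp* they were *Fkbp11*, *Bgn* and 1500009L16Rik, each with r of 0.979. For *Bmp4* they were *Mapk12* (0.993), *Afdn* (0.991) and *Capn5* (0.988), for *Sox9* *Insyn1* (0.984), *Tmem184c* (0.971) and *Prrx2* (0.966), and for *Runx1* *Abca9* (0.983), *Rab7b* (0.981) and *Basp1* (0.978). *Spp1* was most like *Fbxo33* (0.919), *Htra2* (0.916) and *Plac8* (0.914), and *Ibsp* like *Bglap* (0.960), *Dmkn* (0.918) and *C1qtnf3* (0.902). *Alpl* was nearest to *Mzt2* (0.955), *Lurap1l* (0.952) and *Cebpd* (0.943), *Runx2* to *Rpn1* (0.930), *Tiam1* (0.928) and *Itpkc* (0.920), and *Bmp2* to *Slc35c2* (0.920), *Etv5* (0.909) and *Mnt* (0.899). The low counts of *Runx2*, *Alpl* and *Ibsp* limit what these values can show.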

How the data were processed

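The authors deposited a matrix of raw UMI counts for each library, which came from Cell Ranger 5.0.1 for WT and mgR and 6.0.1 for mgR-LOS per the file headers, while the submitters' processing notes list 6.0.1. The build was GRCm38 (mm10). Gene positions came from GENCODE annotation of that build. Libraries were grouped by their labels. Limits were 600 to 5000 detected genes and a mitochondrial share of no more than 10%. A barcode was gated when its 8-marker panel reached at least 100 (SMC, fibroblast), 20 (EC) or 25 (macrophage) UMIs per 10000 and every other panel stayed under its own minimum. These minimums were set after the panel distributions had been seen. The members, gene lists and tests were chosen with earlier results of these data known. Doublets were called by an artificial-neighbour score (337, 689 and 1492 barcodes) and kept in. In the SMC and fibroblast gates 7.89% and 11.4% of mgR-LOS barcodes were called, against 6.20% and 2.42% in WT and 11.9% and 1.90% in mgR.

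UMIs were summed per gate and library and scaled to CPM, with exact Poisson intervals. Ratios carry exact conditional binomial intervals and shares, after thinning to 1000 UMIs, exact Clopper-Pearson intervals, all at 95%. Reads of 1 pool are not independent animals, so these intervals and the floor of 3 counts cover counting error only. A gene counted as past 2-fold when its mean over the 3 libraries was at least 10 CPM. The code was tested on simulated data. Named genes were every member, at most 4 examples per list (highest mean CPM or largest ratio past 2-fold), the 3 genes most like each member, the gate markers and *Fbn1*. *Id2*, *Id3*, *Smad6*, *Bglap*, *Bglap2*, *Col10a1* and *Enpp1* in SMC and *Acan* in fibroblasts, where outside that rule, were chosen after their values were seen. Python 3.11.15, numpy 2.4.6, scipy 1.17.1, pandas 2.3.3, scikit-learn 1.9.0 and matplotlib 3.10.9 were used. Alternatives covered the gates, filters, doublets, scaling and thinning.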

Additional observations from a re-analysis of the deposited data

Results flagged for a closer look

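For 6 of the 9 genes, 12 pairs of cell types differed in opposite directions in the same comparison. Each counting interval lay on its own side of 1. At least 1 ratio of each pair was also at least 2 or at most 0.5. Pairs within those limits were left out, such as the higher *Mgp* of SMC against EC and fibroblasts between mgR-LOS and WT. The same count was not made over all genes, and the difference between cell types was not tested. Each group was 1 library, so each direction is that of 2 libraries. Between mgR and WT, *Alpl* was lower in SMC (ratio 0.195) and higher in fibroblasts (1.39), *Bmp2* was higher in SMC (3.01) and lower in fibroblasts (0.859), and *Bmp4* was higher in SMC (3.10) and lower in fibroblasts (0.687). *Mgp* was higher in SMC (4.06) and macrophages (4.97), where its level was at or below that of lymphocyte-like barcodes, and lower in EC (0.943). Between mgR-LOS and mgR, *Alpl* was higher in SMC (2.99) and lower in fibroblasts (0.458), and *Bmp4* was lower in SMC (0.472) and higher in EC (1.12) and fibroblasts (1.22). Between mgR-LOS and WT, *Mgp* was higher in macrophages (2.67, or 1.86 with stricter gates and 1.91 without called doublets) and lower in EC (0.643) and fibroblasts (0.686), *Runx1* was higher in SMC (2.19) and lower in fibroblasts (0.789), and *Spp1* was higher in macrophages (2.82) and lower in fibroblasts (0.101).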

How the results depend on the processing

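No paired analysis was possible because each group was 1 pooled library and the labels number no replicates. For the same reason no library could be left out. The *Spp1* ratio of mgR over WT in SMC, 25.5, was 10.0 with stricter gates, 44.7 with a mitochondrial limit of 5% and 35.1 as the mean of barcodes' shares. Its ratio of mgR-LOS over mgR was 0.0694 with stricter gates, 0.0555 with barcodes given to their highest panel and 0.0245 without called doublets, and that of mgR-LOS over WT was 1.63 by the highest panel and 1.73 with the 5% limit. The *Mgp* ratio of mgR over WT in SMC was 3.62 (stricter gates), 3.98 (highest panel), 4.60 (5% limit), 4.20 (without doublets), 3.97 (CPM without mitochondrial, ribosomal and globin genes), 3.78 (mean of shares) and 4.11 (without the 10 top barcodes). That of mgR-LOS over mgR was 0.450, 0.417, 0.319, 0.388, 0.416, 0.425 and 0.413 in the same order and 0.417 with at least 200 genes, and that of mgR-LOS over WT was 1.63, 1.47, 1.63, 1.65, 1.61 and 1.70 without the highest-panel setting and 1.70 with at least 200 genes. Under these settings both genes remained higher in mgR than in WT and lower in mgR-LOS than in mgR in SMC. *Bmp2* in EC of mgR-LOS over WT, 9.43, turned to 0.707 with the 5% limit, which removed a barcode that held most of its UMIs.

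Here the members' ratios past 2-fold were taken without the limit of 10 CPM, where the counting interval also excluded 1. Of these, 25 of 30 stayed past 2-fold with stricter gates, 28 of 31 by the highest panel, 24 of 28 with the 5% limit, 29 of 30 without doublets, 27 of 31 as the mean of shares, and 31 of 31 with at least 200 genes or with CPM without mitochondrial, ribosomal and globin genes. Of the alternatives added after seeing the data, 22 of 23 stayed without the 10 top barcodes, 5 of 5 without the *Ibsp* barcodes and 27 of 27 without *Mgp* in the total. *Bmp4* of SMC in mgR-LOS over mgR, 0.472, was 0.540 with stricter gates, 0.532 by the highest panel and 0.501 as the mean of shares. *Runx2* of SMC in mgR-LOS over WT, 2.47, was 1.2 with the 5% limit and 1.82 as the mean of shares, and *Runx1*, 2.19, was 1.87 to 1.97 under 3 settings. *Alpl* of SMC in mgR-LOS over mgR, 2.99, was 1.79 by the highest panel. Counts of genes past 2-fold depended on the minimum level: with any UMI and with at least 50 CPM they were, in the order mgR over WT, mgR-LOS over mgR and mgR-LOS over WT, in SMC 5593, 4839 and 5626 and 67, 37 and 35 (from 232, 104 and 175), in fibroblasts 6077, 4705 and 5204 and 121, 38 and 91 (from 328, 119 and 249), in EC 4660, 4139 and 4297 and 99, 81 and 78 (from 532, 377 and 590, the last 909 with the 5% limit) and in macrophages 6378, 4572 and 5329 and 60, 28 and 58 (from 408, 121 and 467). Depth limits *Runx2*, *Alpl* and *Ibsp* outside fibroblasts and most members in EC, where sums rest on few UMIs.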

Other observations

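Barcodes outside the limits on genes and mitochondrial UMIs also carried *Spp1*. Over 5000 genes, in 252 WT, 521 mgR and 211 mgR-LOS barcodes, it was at 164, 151 and 38.7 CPM. Under 600 genes it was at 10.5, 73.5 and 6.72 CPM, and above 10% mitochondrial UMIs at 9.56, 47.9 and 5.07. *Mgp* in barcodes that met both the SMC and the fibroblast gate was at 13516, 32751 and 14139.9 CPM, and 55.7%, 33.4% and 67.8% of those barcodes were called doublets.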
